A study of Mus musculus with 6 samples.

Results

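The core cardiac transcription factors are Gata4, Gata6, Nkx2-5, Mef2a, Mef2c, Mef2d, Tbx5, Tbx20, Hand2 and Irx4. These 10 genes were taken by their symbols from the 55487 genes of the deposited tables, and all 10 were found and passed the filter on low counts, as did 15727 genes in all. The choice used the symbols alone and no measured value. Their mRNA was measured by bulk RNA sequencing of left ventricle, the chamber that pumps blood into the aorta, in male C57BL/6 mice that were 8 weeks old. The ET group (3 libraries) received a 5% ethanol diet for 10 days and then a single gavage of ethanol. The CONT group (3 libraries) received an isocaloric control diet over the same period and a gavage of maltose-dextrin. Hearts were taken 9 h after the gavage, and no allele or transgene is named in the labels. This is a short feeding-and-binge design, although the labels give the ET group the disease state of alcoholic cardiomyopathy. Nothing in the labels says that the libraries came from different mice. The p-values therefore refer to the spread between libraries alone, which may be technical.

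As background, these factors bind DNA next to each other at the control regions of heart muscle genes and switch many of them on together. GATA factors carry zinc fingers, Nkx2-5 a homeodomain, MEF2 factors a MADS domain, T-box factors a T domain, Hand2 a basic helix-loop-helix and Irx4 an Iroquois homeodomain. They first build the heart in the embryo, and most remain active in adult cardiomyocytes, where they hold sarcomere, ion channel and stress genes in their adult state. Several are also made outside cardiomyocytes: Gata4, Gata6, Tbx20, Tbx5 and Hand2 in cardiac fibroblasts, and MEF2 factors in endothelium, smooth muscle and macrophages. In bulk tissue, fewer cells of a type and less mRNA per cell cannot be told apart.

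None of the 10 factors passed the test between ET and CONT (adjusted p under 0.05, edgeR), nor did any other gene (0 of 15727 tested, 0%). In 8 of them the log2 fold change was at most 0.26 in size. Tbx5 had the largest difference, 48.2 ± 10.9 CPM (TMM-scaled CPM, library counts scaled to a common depth; SD, n = 3) in ET against 27.3 ± 18.4 in CONT. Irx4 had the largest in the other direction, 16.2 ± 8.02 CPM against 23.7 ± 1.29. Both values depended on which libraries were included. In each of the 10, the range within 1 of the groups was wider than the distance between the group means.

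Promoter sequence is shown for Hand2, Tbx20 and Irx4, and a MEF2 match is shown at the start of Mef2a. The RefSeq table on the GRCm38.p6 build held promoters for 7 of the 10 genes, and Tbx5, Gata4 and Gata6 are named only. Each line gives the 250 bases before the start site, 5′ to 3′ on the gene's strand. Hand2 lies at chr8:57320733-57320982 (plus strand), Tbx20 at chr9:24774304-24774553 (minus) and Irx4 at chr13:73260247-73260496 (plus). Capitals mark letter matches to the motifs searched.
Hand2: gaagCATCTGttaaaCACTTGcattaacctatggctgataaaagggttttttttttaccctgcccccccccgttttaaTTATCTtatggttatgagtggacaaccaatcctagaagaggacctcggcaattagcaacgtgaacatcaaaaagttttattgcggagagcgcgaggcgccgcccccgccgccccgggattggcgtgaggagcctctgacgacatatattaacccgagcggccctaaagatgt
Tbx20: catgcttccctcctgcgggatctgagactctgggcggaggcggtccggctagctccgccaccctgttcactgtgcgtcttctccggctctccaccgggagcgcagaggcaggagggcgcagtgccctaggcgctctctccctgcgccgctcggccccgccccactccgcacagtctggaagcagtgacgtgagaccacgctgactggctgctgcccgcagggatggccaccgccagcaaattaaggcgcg
Irx4: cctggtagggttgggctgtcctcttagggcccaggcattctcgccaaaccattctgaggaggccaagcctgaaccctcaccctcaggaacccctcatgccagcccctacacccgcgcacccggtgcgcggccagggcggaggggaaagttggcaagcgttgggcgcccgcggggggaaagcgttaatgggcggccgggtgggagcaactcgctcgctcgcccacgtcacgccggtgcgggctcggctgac
Mef2a: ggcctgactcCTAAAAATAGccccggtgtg
The Mef2a line is a window of 30 bases at chr7:67372841-67372870 (minus strand) across the start site. The motifs were searched on both strands of windows of 300 bases, from 250 before the start to 50 after it, in all 32851 promoters of the table. The letters AGATAA, read by zinc fingers of the GATA kind, were found in 11.2% of them. The T-box letters AGGTGT were found in 13.7%, the NKX2-5 letters AAGTG in 46.4% and the E-box letters CANNTG, read by helix-loop-helix factors, in 72.3%. The letters TATAAA of the core promoter were found in 13.6%, the CArG motif of serum response factor in 1.63% and the MEF2 motif in 0.557%. The Hand2 window held a GATA match and a pair of E-box letters, of which CACTTG also reads as the NKX2-5 motif on the other strand. Mef2a held the single MEF2 match among these 7 genes, from 2 bases before the start site onward. In the printed bases of Tbx20 and Irx4 none of the searched letters occur, and 68.8% of the bases of each are G or C. A letter match is a description of the sequence and not a binding site.

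The genes lie on the GRCm38 (mm10) build, by the GENCODE M21 annotation, as protein-coding genes, and each value covers all their exons. Gata4 (ENSMUSG00000021944) is on chromosome 14 at 63198922 to 63271692 (minus strand); Gata6 (ENSMUSG00000005836) is on chromosome 18 at 11052064 to 11085635 (plus). Nkx2-5 (ENSMUSG00000015579) is on chromosome 17 at 26838664 to 26845009 (minus). Mef2a (ENSMUSG00000030557) is on chromosome 7 at 67231163 to 67372858 (minus), Mef2c (ENSMUSG00000005583) on chromosome 13 at 83504034 to 83667080 (plus) and Mef2d (ENSMUSG00000001419) on chromosome 3 at 88142372 to 88172086 (plus). Tbx5 (ENSMUSG00000018263) is on chromosome 5 at 119832668 to 119885219 (plus) and Tbx20 (ENSMUSG00000031965) on chromosome 9 at 24718138 to 24774303 (minus). Hand2 (ENSMUSG00000038193) is on chromosome 8 at 57320983 to 57324633 (plus), and Irx4 (ENSMUSG00000021604) shares chromosome 13 with Mef2c, at 73260479 to 73269608 (plus). The number of annotated transcripts ran from 1 for Hand2 to 31 for Mef2c. 4 of the 10 overlap an opposite-strand gene in their exons: 19.6% of the exon bases of Hand2, 8.87% of Mef2d, 2.06% of Mef2a and 1.43% of Gata6. The strand setting of the counting is not given in the sources, so part of these 4 values is uncertain.

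The libraries held 28838386 to 37762233 expected counts, the authors' estimated counts per gene. Each factor had at least 259 counts in every library, so counting error is small beside the spread between libraries. Markers of ventricular and general cardiomyocytes were present in every library, as the label of the tissue asks. ET replicate 1 stood apart, with the highest summed level of atrial, fibroblast, mesothelial and macrophage markers and the lowest of ventricular markers. CONT replicate 3 came next in atrial markers. The libraries also fell into sets by the effective length of Myh6, the main adult myosin heavy chain. It was 1309 to 1365 bases in CONT replicates 1 and 2 and ET replicate 1, and 2061 to 2370 in CONT replicate 3 and ET replicates 2 and 3. A ratio of ET to CONT within a set thus rests on a single ET library (replicate 1) or a single CONT library (replicate 3). Results that rest on these libraries are given with and without them.

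Per length, in TPM (a level scaled by transcript length and depth), the factors covered a narrow range of levels. Nkx2-5, the homeodomain factor of the cardiac lineage, was the highest, from 26.95 to 35.46 TPM (SD 3.27, n = 6 libraries). Mef2d followed at 25.6 ± 4.16, Gata4 at 22.6 ± 4.54, Hand2 at 20.9 ± 5.18 and Mef2a at 18.5 ± 2.83. Gata6 had 14.3 ± 4.35 TPM, Tbx5 11.9 ± 6.94, Irx4 8.35 ± 2.42, Mef2c 7.68 ± 0.829 and Tbx20 4.94 ± 1.90. Nkx2-5 was above Mef2d, Mef2d above Gata4, Mef2a above Gata6 and Mef2c above Tbx20 in 6 of 6 libraries. The other neighbours changed places in at least 1 library: Hand2 was above Mef2a and Irx4 above Mef2c in 5 of 6, and Gata4 above Hand2, Gata6 above Tbx5 and Tbx5 above Irx4 in 4 of 6. The summed level of the 10 factors was 130, 138 and 188 TPM in CONT and 167, 192 and 180 TPM in ET. TPM ran higher in ET for genes at large: 12.3% of tested genes lay higher in ET without overlap and 3.27% lower.

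**Figure D1:**
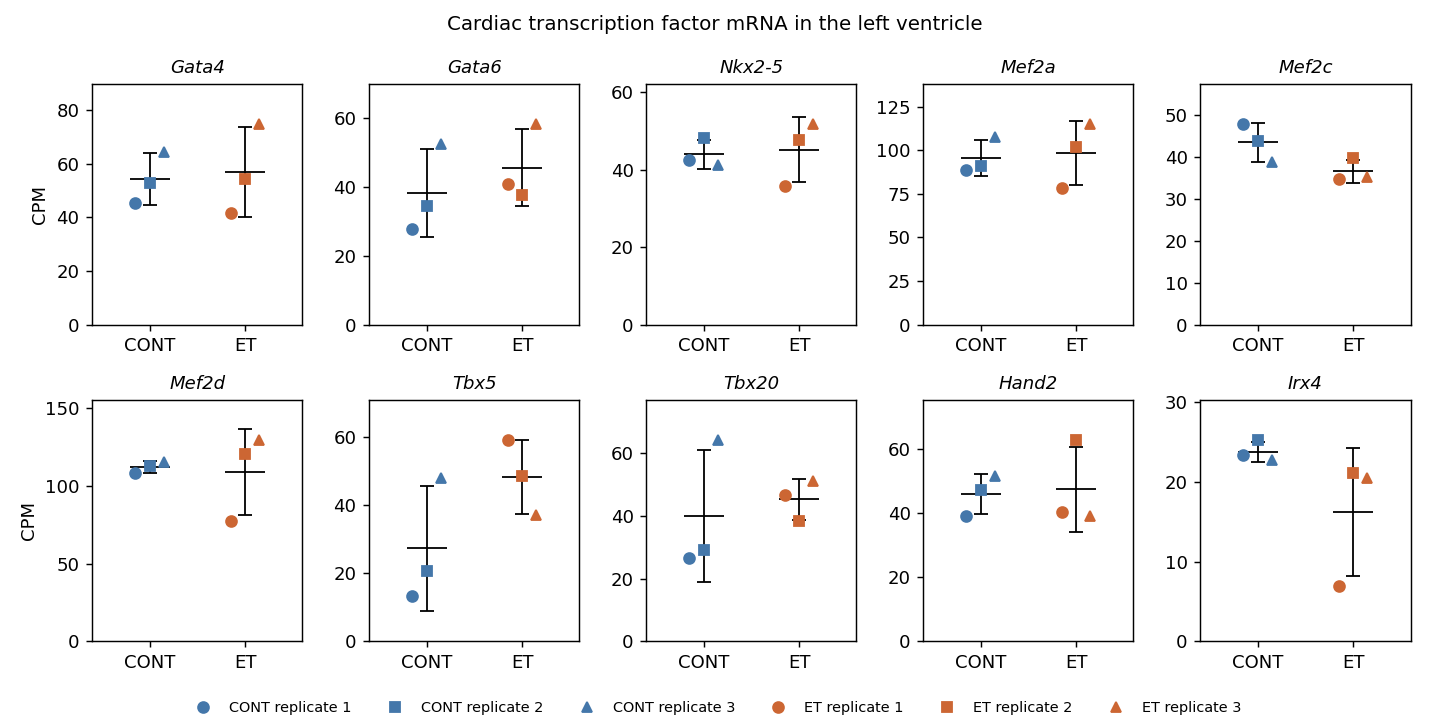
TMM-scaled CPM (y axis, from 0) of the 10 factors by group (x axis), with 1 point per library and bars for the mean and SD of 3 libraries. The points of the groups overlap in all panels but that of Irx4, where ET replicate 1 lies far below the rest at 6.91 CPM.

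Gata4 and Gata6 are zinc finger activators of cardiac genes, and Gata4 also drives the response of the ventricle to load. Gata4 was at 45.4, 52.8 and 64.4 CPM in CONT replicates 1 to 3 and at 41.6, 54.3 and 74.8 CPM in ET. The ET values reached both below and above those of CONT, and the log2 fold change was 0.07 ± 0.24 (SE, adjusted p = 0.938, edgeR). Gata6 was at 27.7, 34.4 and 52.2 CPM in CONT and 40.8, 37.6 and 58.2 CPM in ET. Its log2 fold change was 0.26 ± 0.28 (adjusted p = 0.769, edgeR). Both genes were highest in ET replicate 3 and next in CONT replicate 3. Without CONT replicate 3 the log2 fold change of Gata6 was 0.56 (adjusted p = 0.437), and without ET replicate 3 it was 0.04 (adjusted p = 0.971). Within the library sets the log2 ratio of Gata6 was 0.39 and -0.13, and that of Gata4 was -0.24 and 0.003. The 2 factors were also compared per length, as the share of Gata4 in the sum of both. This share was 67.8%, 65.6% and 60.0% in CONT and 54.7%, 63.1% and 60.2% in ET. The means were 64.5% ± 4.01 and 59.3% ± 4.26 (SD, n = 3), a difference of -5.10 percentage points (two-sided exact permutation test, p = 0.3). The exact permutation test cannot go below p = 0.1 with 3 libraries against 3. In all, 4 shares were tested (the others are of the MEF2 genes), and the adjusted p was 0.667.

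Nkx2-5 had one of the smallest spreads of the 10, at 42.5, 48.2 and 41.4 CPM in CONT and 35.8, 47.8 and 51.9 in ET. The log2 fold change was 0.04 ± 0.17 (adjusted p = 0.957, edgeR), and the ratios within the library sets were -0.34 and 0.27. In TPM the picture was different: 26.95, 29.29 and 29.79 TPM in CONT and 29.95, 35.46 and 34.42 in ET, with each ET library above each CONT library. The effective length of Nkx2-5 was nearly the same in all libraries (1445.91 to 1449.62 bases). Its CPM and TPM therefore differ in how the libraries are scaled, not in length. On the TPM scale 12.3% of tested genes lay higher in ET without overlap. The median of the 14114 genes fitted on log2(TPM + 1) moved by 0.15, against 0.21 for Nkx2-5. The adjusted p of Nkx2-5 on that scale was 0.586 (limma).

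The MEF2 factors join contraction, calcium signals and growth to transcription, and class II histone deacetylases hold them in check. Mef2d, the most abundant of them in CPM, was at 108, 113 and 115 CPM in CONT and 77.4, 120 and 129 in ET. ET replicate 1 was the low library, and the log2 fold change was -0.04 ± 0.21 (adjusted p = 0.962, edgeR). Mef2a was at 88.6, 90.8 and 108 CPM in CONT and 78.6, 102 and 115 CPM in ET, with a log2 fold change of 0.04 ± 0.19 (adjusted p = 0.953). It too was lowest in ET replicate 1 and highest in ET replicate 3. Mef2c was the member with the lowest unadjusted p (0.108). It was at 47.9, 43.8 and 38.7 CPM in CONT and 34.8, 39.7 and 35.1 in ET, and ET replicate 2 lay just above CONT replicate 3. Its log2 fold change of -0.25 ± 0.14 did not pass (adjusted p = 0.601, edgeR). In TPM the means lay close together, with 7.67 ± 0.915 in CONT and 7.69 ± 0.937 in ET (SD, n = 3). The TPM scale itself ran higher in ET: on log2(TPM + 1) the median fitted gene moved by 0.146 and Mef2c by 0.0025. Of 10 endothelial markers 3 were above 0 and 7 below, none passed, and their sum was 865 to 1385 TPM in CONT and 658 to 1338 in ET; their part in the Mef2c value was not tested.

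Within the family, Mef2d made up 49.0% ± 1.48 of the summed TPM of the 3 genes in CONT and 49.5% ± 3.51 in ET (SD, n = 3, exact permutation p = 0.8). Mef2a made up 35.1% ± 2.24 and 36.4% ± 1.86 (exact permutation p = 0.5) and Mef2c 15.9% ± 2.51 and 14.1% ± 2.36 (exact permutation p = 0.5). Adjusted over the 4 shares, the p-values were 0.667 to 0.8. Within the library sets the log2 ratios of ET to CONT in CPM were -0.51 and 0.11 for Mef2d, -0.19 and 0.01 for Mef2a, and -0.40 and -0.05 for Mef2c. The order Mef2d, Mef2a, Mef2c held in 6 of 6 libraries. Mef2b, the remaining MEF2 gene, was at 0.0651 to 0.213 CPM and below the filter.

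**Figure D2:**
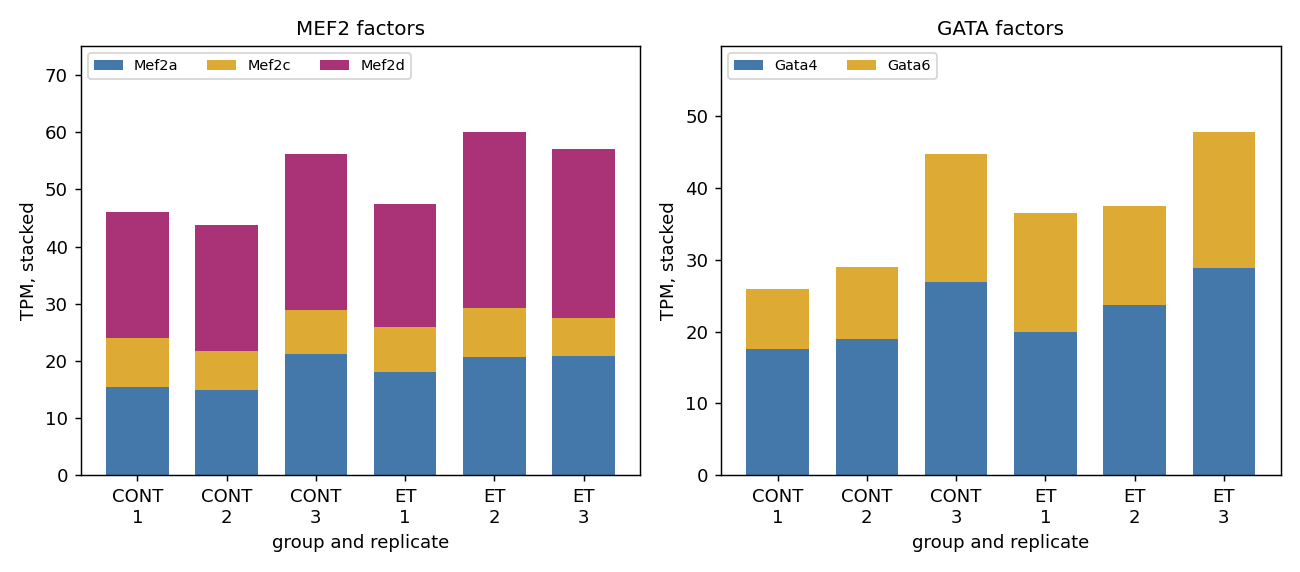
Stacked TPM (y axis, from 0) of the MEF2 genes (left) and of Gata4 and Gata6 (right) in each library (x axis). Mef2d is the largest part of each left bar, and Gata4 takes from 54.7% to 67.8% of the right bars.

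The effective length of a gene, the length that the authors' estimate of its transcripts gives, did not overlap between the groups in Mef2d, Gata6, Tbx20 and Nkx2-5. For Mef2d it was 4519, 4483 and 4394 bases in CONT and 4343, 4183 and 4211 in ET, shorter in each ET library. For Gata6 it was 3051, 3037 and 3039 bases in CONT and 2990, 2910 and 2936 in ET. For Tbx20 it was 8969, 8993 and 8936 bases in CONT and 8915, 8827 and 8676 in ET, again shorter in each ET library. Nkx2-5 was at 1448.18, 1449.62 and 1446.57 bases in CONT and 1446.05, 1445.91 and 1446.40 in ET, so its nearest libraries were less than 1 base apart. Hand2, with 1 annotated transcript, also ran from 2276.1 to 2277.06 bases. A gap as small as that of Nkx2-5 was not tested against the rounding of the FPKM values behind the lengths. Of 9992 genes with at least 100 counts in every library, 7.16% were shorter in ET without overlap and 5.35% longer. Beside these, 4 of the 10 factors were shorter and 0 longer, with Nkx2-5 among the 4 only by its gap of less than 1 base. The antisense gene 1700113A16Rik, which shares 8.87% of the exon bases of Mef2d, was at 7.99, 7.79 and 3.70 CPM in CONT and 3.47, 2.09 and 3.03 in ET. Its log2 fold change was -1.18 ± 0.35 and did not pass (adjusted p = 0.508, edgeR). Whether reads of the bases they share were split by strand is not known here.

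Tbx5 had the widest spread of the 10: its SD of log2 CPM over the 6 libraries was above that of 97.3% of tested genes with a mean of at least 5 CPM (Irx4 95.4%, Tbx20 86.8%). This T-box factor, mutated in Holt-Oram syndrome and needed for septation, atrial rhythm and conduction, was at 13.2, 20.7 and 48.1 CPM in CONT and 59.0, 48.4 and 37.2 CPM in ET. CONT replicates 1 and 2 were low, and CONT replicate 3 lay among the ET libraries, so the groups overlapped. The log2 fold change was 0.82 ± 0.46 (adjusted p = 0.610, edgeR). Without CONT replicate 3 it was 1.52 ± 0.29 (adjusted p = 0.309), and without CONT replicate 1 it was 0.49 ± 0.39 (adjusted p = 0.998). With CONT replicate 3 and ET replicate 1 both left out, it was 1.36 ± 0.25 and passed (adjusted p = 0.0434, edgeR). It was the 1 member of 10 called in that fit, in which 5.27% of all tested genes were called and 3.37% were called higher in ET. In that fit the remaining groups also belong to different library sets, so group and set cannot be told apart. Within the set of CONT replicates 1 and 2 and ET replicate 1 Tbx5 had a log2 ratio (ET over CONT) of 1.80. In the other set it was -0.17.

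Atrial markers moved with part of the Tbx5 values. Of 13 atrial markers, 11 were tested, all 11 had a fold change above 0, and none passed (median log2 fold change 1.06, against 0.01 for all tested genes). Their summed level was 127 to 2227 TPM in CONT and 130 to 14800 TPM in ET, and Bmp10, singled out after its values were seen and at 24.9 TPM in CONT replicate 3, was at 0 to 0.01 TPM in the others. The highest sums were those of ET replicate 1 (14800) and CONT replicate 3 (2227), where Tbx5 was also high. ET replicate 3, however, had 37.2 CPM of Tbx5 with an atrial sum of 130 TPM, close to that of CONT replicate 2 (127 TPM, Tbx5 20.7 CPM). The part of atrial tissue in the Tbx5 difference was not tested. Of 12 conduction system markers, 10 were tested, 1 was above 0 and 9 below, and their sum was 21.5 to 37.9 TPM in CONT and 20.6 to 27.0 in ET.

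Tbx20, a T-box factor that keeps adult cardiomyocytes contracting, was at 26.6, 29.1 and 64.1 CPM in CONT and 46.5, 38.3 and 51.0 in ET. CONT replicate 3 was the highest library and CONT replicates 1 and 2 the lowest, with all of ET in between. The log2 fold change was 0.18 ± 0.34 (adjusted p = 0.873, edgeR). It was 0.71 ± 0.18 without CONT replicate 3 (adjusted p = 0.350) and 0.70 ± 0.17 with ET replicate 1 also left out (adjusted p = 0.0577). In the latter fit group and library set cannot be told apart. In the library sets the log2 ratios of ET to CONT were 0.74 and -0.52, opposite in sign. The first rests on ET replicate 1 alone for ET, and the second on CONT replicate 3 alone for CONT.

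Hand2, a helix-loop-helix factor of the right ventricle and the sympathetic lineage, was at 39.1, 47.2 and 51.6 CPM in CONT and 40.4, 62.7 and 39.2 CPM in ET. ET replicate 2 was high and the other ET libraries lay within the CONT range (log2 fold change 0.04 ± 0.22, adjusted p = 0.959, edgeR; -0.09 and -0.02 within the library sets). Of 10 neuron and Schwann cell markers (summed 1.58 to 8.13 TPM), 5 had enough counts to be tested, 0 were above 0 and 5 below (median -0.62), and none passed. Dbh, which makes noradrenaline in sympathetic neurons, was at 2.68, 2.28 and 2.49 CPM in CONT and 0.720, 0.882 and 0.553 in ET. Each ET library lay below each CONT library, as in 8.36% of all tested genes (log2 fold change -1.78 ± 0.29, adjusted p = 0.427, edgeR). The part of neural cells in the Hand2 value was not tested. Hand2os1, the long RNA that runs from the same region in the opposite direction, was at 36.7, 44.5 and 56.2 CPM in CONT and 55.6, 90.5 and 47.1 in ET. Its log2 fold change was 0.49 ± 0.28 (adjusted p = 0.614, edgeR). The ratio of Hand2os1 to Hand2 CPM was 0.938, 0.943 and 1.09 in CONT and 1.38, 1.44 and 1.202 in ET, higher in each ET library. This ratio was picked after its values were seen, so it is given with no test.

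Irx4, an Iroquois factor made in ventricular and not in atrial myocytes, was at 23.3, 25.2 and 22.7 CPM in CONT and 6.91, 21.1 and 20.5 in ET. It was the 1 member whose CPM did not overlap between groups, lower in ET, as were 8.36% of all tested genes, while 6.89% lay higher without overlap (15.2% in either direction). The log2 fold change was -0.56 ± 0.38 (adjusted p = 0.657, edgeR). Without ET replicate 1 it was -0.18 ± 0.12 (adjusted p = 0.470), and with a term for the library sets it was -0.95 ± 0.40 (adjusted p = 0.504). Within the sets the log2 ratio was -1.81 in the set with ET replicate 1 and -0.13 in the other. In TPM the groups overlapped, with 9.15 to 10.1 in CONT and 3.56, 9.61 and 8.28 in ET. The related genes Irx3 and Irx5, singled out after their values were seen, were also lowest in ET replicate 1. Irx3 was at 6.27 CPM there against 18.7 to 36.6 elsewhere, and Irx5 at 2.67 against 5.28 to 8.38.

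Ventricular markers were low in the same library. Their summed level was 19347 to 20276 TPM in CONT and 10981, 17213 and 17928 TPM in ET replicates 1 to 3, and Irx4 is itself 1 of these 8 markers. Of the 8, 3 had a fold change above 0 and 5 below (median -0.33), none passed, and none was at 0 in any library. Myh7, the slow myosin heavy chain, went the other way, at 353, 297 and 422 CPM in CONT and 482, 899 and 3273 CPM in ET. Each ET library lay above each CONT library, as in 6.89% of all tested genes (log2 fold change 2.12 ± 0.68, adjusted p = 0.515, edgeR). Fibroblast markers summed to 2273 TPM in ET replicate 1 against 665 to 948 elsewhere, and macrophage markers to 538 against 178 to 206. The part of these other tissues in the Irx4 value of that library was not tested. Hey2, a Notch target that keeps atrial genes off in the ventricle, was at 3.06, 3.03 and 3.11 CPM in CONT and 5.68, 6.00 and 5.08 in ET (log2 fold change 0.86 ± 0.17, adjusted p = 0.427, edgeR). Unlike Irx4 it was not lowest in ET replicate 1.

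**Figure D3:**
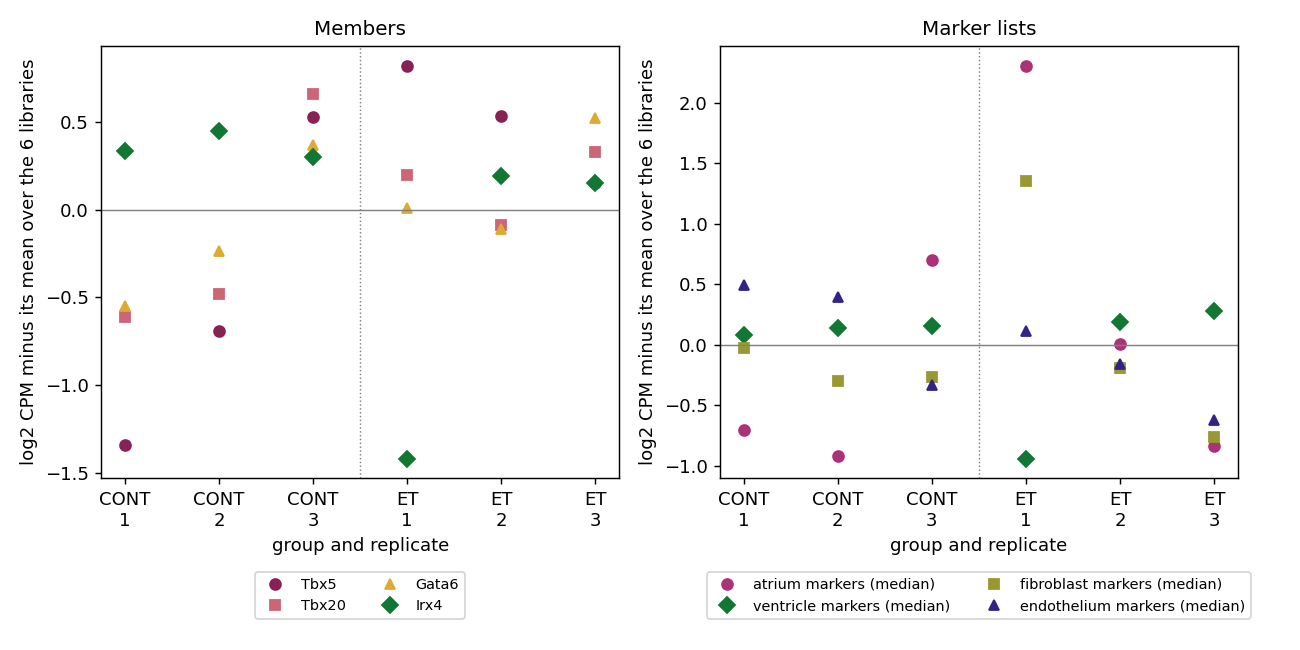
Log2 CPM minus its mean over the 6 libraries (y axis) of 4 factors (left), and the median of the same quantity over marker lists (right), by library (x axis, CONT left of the dotted line). Irx4 (-1.42) and the ventricular markers (-0.94) are lowest in ET replicate 1, where the atrial markers (2.30) are highest, and Tbx5 is low in CONT replicates 1 and 2 only.

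Across the 10 factors, 7 log2 fold changes were above 0 and 3 below, with a median of 0.04, while 51.9% of all tested genes were above 0 with a median of 0.01. In edgeR 0 of 10 had an unadjusted p under 0.05, against 8.65% of all genes. DESeq2 on the same counts called 0 of the 10 as well (lowest adjusted p 0.537, Tbx5), while it called 1.18% of all genes. In edgeR the SE of a log2 fold change ran from 0.14 (Mef2c) to 0.46 (Tbx5). The differences seen in the 10, those of Tbx5 and Irx4 included, could therefore not be told from 0 with all 6 libraries.

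**Figure D4:**
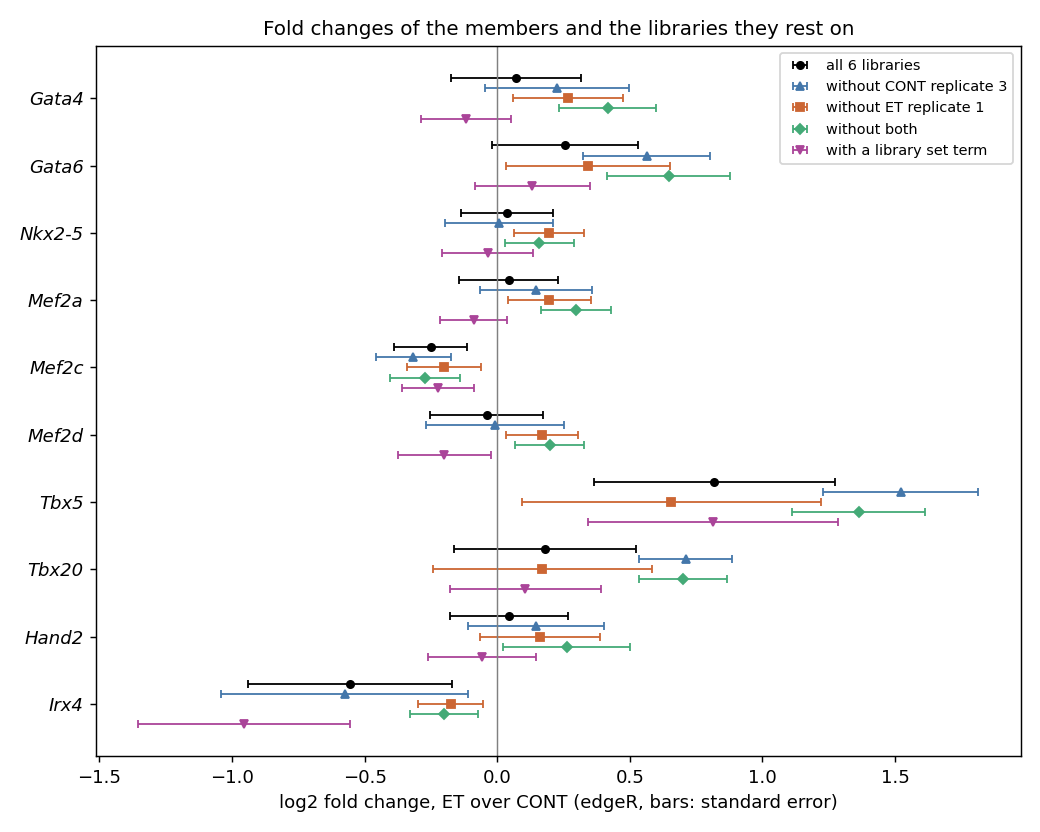
Log2 fold change of ET over CONT (x axis) for each factor (y axis) in edgeR fits on all 6 libraries, without single libraries, without both, and with a term for the library sets; bars are standard errors. Tbx5 moves from 0.82 to 1.52 without CONT replicate 3, and Irx4 from -0.56 to -0.18 without ET replicate 1.

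The profiles over the 6 libraries, each as log2 CPM minus its own mean, showed which factors lay together. Likeness was measured as the root mean square difference over the 6 libraries, where 0 is the same profile. Nkx2-5 and Mef2d were the closest pair at 0.11, then Mef2a with Mef2d and Gata4 with Mef2a at 0.12 each. These genes were all lowest in ET replicate 1. Tbx5 and Irx4 were the farthest pair, followed by Mef2c and Tbx5 (0.92). Among 9539 other genes with a mean of at least 5 CPM, the closest to Irx4 were Rpl3l, a ribosomal protein gene of striated muscle (0.15), and Lbh, a developmental regulator on the list of ventricular markers (0.17). The closest to Tbx20 were Kcnj5, a subunit of the acetylcholine-activated potassium channel (0.11), and Chrm2, the muscarinic receptor that opens it (0.14). The closest to Tbx5 were Angpt1, a ligand of the Tie2 receptor (0.15), and Ptk2b, a calcium-sensitive kinase (0.19). Hsp90ab1 (0.03) and Tec (0.05) were closest to Gata4, and Neo1 (0.08) and Mtus2 (0.08) to Gata6. Dis3l (0.02) and Tmem11 (0.03) came nearest to Nkx2-5, Mkrn2 (0.03) and Trabd (0.03) to Mef2a, and Tmem268 (0.02) and Trappc9 (0.02) to Mef2d. Fbxo34 (0.03) and Cramp1l (0.04) were nearest to Mef2c, and Snrpn (0.04) and Atpsckmt (0.07) to Hand2. Near matches were found for profiles that varied little.

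Other genes of the same families were mostly low. Of 24 GATA, NK2, MEF2, T-box, HAND and Iroquois genes and Isl1 outside the 10, 12 had enough counts to be tested and 4 had no count in any library (Tbx19, Tbx22, Nkx2-3 and Nkx2-6). Of the 12, 5 were above 0 and 7 below, with a median of -0.05, and none passed. Tbx18, an epicardial and sinus node factor, was at 3.06, 3.07 and 2.87 CPM in CONT and 7.25, 3.88 and 3.68 in ET (log2 fold change 0.72 ± 0.30, adjusted p = 0.572, edgeR). It was highest in ET replicate 1, where the mesothelial markers also summed to 123 TPM against 4.37 to 18.7 elsewhere. Tbx18 is itself 1 of these 10 markers, with 1.91 TPM in that library. Tbx6, a factor of the embryonic mesoderm, was at 1.53 ± 0.365 CPM and 0.772 ± 0.358.

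Of 21 coactivators and partners found, all 21 were tested, 12 were above 0 and 9 below (median 0.05), and none passed. Smarcd3, the chromatin remodelling subunit that lets T-box and GATA factors act, was at 44.2, 40.4 and 44.7 CPM in CONT and 32.0, 30.1 and 30.0 CPM in ET. Each ET library lay below each CONT library, as in 8.36% of all tested genes. The log2 fold change of -0.49 ± 0.12 did not pass (adjusted p = 0.478, edgeR). Csrp3, the muscle LIM protein, was at 775 ± 24.0 CPM against 482 ± 167 (log2 fold change -0.69 ± 0.27, adjusted p = 0.559). Of 18 MEF2 repressors and the kinases and phosphatases that act on MEF2 or its repressors, 6 were above 0 and 12 below (median -0.04), and none passed. Camk2g, a calcium/calmodulin kinase, was at 31.5 ± 2.26 CPM against 25.2 ± 2.61, and Hdac4, a repressor of MEF2, at 24.0 ± 1.47 against 30.3 ± 6.42.

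Of 40 cardiac genes with known sites for these factors, 21 were above 0 and 19 below, with a median of 0.04, and 0 passed in edgeR. With unadjusted p under 0.05 there were 1 higher (Myh7, given above) and 5 lower, beside 4.19% of all tested genes higher and 4.46% lower. Tnnc1, the calcium-binding troponin, was at 2153, 2187 and 1714 CPM in CONT and 1164, 1228 and 1438 in ET (log2 fold change -0.66 ± 0.20, adjusted p = 0.515). Gja1, the main ventricular gap junction protein connexin 43, was at 177, 230 and 188 CPM in CONT and 92.6, 106 and 155 in ET (-0.75 ± 0.24, adjusted p = 0.515). In both genes, named for the lowest p of their list, each ET library lay below each CONT library, as in 8.36% of all tested genes. Nppa, the atrial natriuretic peptide and a shared target of Gata4, Nkx2-5 and Tbx5, is also on the atrial list. It was at 81.2, 72.9 and 656 CPM in CONT and 5352, 256 and 52.8 CPM in ET (2.81 ± 1.67, adjusted p = 0.625). Its high libraries were those with the highest atrial sums, but Nppa is itself a large part of these sums. It made up 8200 of 14800 TPM in ET replicate 1, 864 of 2227 in CONT replicate 3 and 348 of 531 in ET replicate 2. The match is therefore partly built in. General cardiomyocyte markers, which include Tnnc1, had 9 of 10 fold changes below 0 (median -0.24), and none passed.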

How the data were processed

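Bulk RNA sequencing of 6 left ventricle libraries (3 CONT, 3 ET) was used. Per the labels, 1000 ng of total RNA entered a NuGEN Universal mRNA Plus kit, read as 75 bp pairs. The submitters' processing notes name STAR 2.7.0f, RSEM 1.2.31 and mm10. No source used here gives the annotation or the strand setting. The authors deposited expected counts (estimated counts per gene, not normalized) and, per library, TPM and FPKM values, per the file headers. Totals were 28838386 to 37762233 expected counts. The expected counts were rounded for all count tests; FPKM served only to derive effective lengths.

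ET was compared with CONT with edgeR 4.0.16 (R 4.3.3): filterByExpr (minimum count 10, minimum total 15), TMM, robust quasi-likelihood test, two-sided, Benjamini-Hochberg over 15727 genes, threshold 0.05, no covariate. The SE is the log2 fold change divided by the square root of F. Shares were compared by exact permutation tests. Alternatives were RLE factors, no filter, DESeq2 1.42.0, limma 3.58.1 (voom, and trend on log2(TPM + 1) or log2(TPM + 0.1) at a mean TPM of at least 0.5), removal of mitochondrially encoded genes, a library set term, and leaving out libraries. Replicates are numbered in accession order. Named genes are the 10 factors, up to 2 members of each list by lowest p, and the 2 nearest profiles per factor (no predicted loci); others (Bmp10, Irx3, Irx5, Mef2b, Myh6, genes that overlap a factor, genes at 0) were named after values were seen. The factors, lists, library sets and alternatives were chosen with earlier results of these data known. Of 55487 gene IDs, 55394 were found in GENCODE M21.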

Additional observations from a re-analysis of the deposited data

How the results depend on the processing

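No paired analysis was possible because the labels carry no replicate numbers. Each factor was refitted under 15 alternatives. Of these 150 values, 130 kept the direction and 20 reversed, and 1 passed the threshold (Tbx5 without CONT replicate 3 and ET replicate 1). The library set term gave log2 fold changes of -0.12 for Gata4, -0.036 for Nkx2-5, -0.089 for Mef2a and -0.057 for Hand2. On log2(TPM + 1) and log2(TPM + 0.1), Mef2c was at 0.0025 and 0.0027 and Mef2d at 0.18 and 0.19. The median fitted gene was at 0.146 and 0.181 on these scales, against 0.0144 in the main fit. With CONT replicate 3 and ET replicate 1 both left out, Mef2d was at 0.20. Leaving out each library in turn gave -0.18 to 0.27 for Gata4, -0.077 to 0.20 for Nkx2-5, -0.087 to 0.20 for Mef2a, -0.18 to 0.17 for Mef2d, -0.041 to 0.71 for Tbx20 and -0.21 to 0.16 for Hand2. The Mef2d share differed by -0.37 percentage points from CPM and by -0.61 to 2.51 with single libraries left out. Over all genes, 0 were called by edgeR (1360 at an unadjusted p under 0.05), 185 by DESeq2, 1 on log2(TPM + 1), 2 on log2(TPM + 0.1), 828 with both libraries left out and 0 with any single one left out. With both left out, group and library set cannot be told apart. The causes were not tested. With 3 libraries a group, these values moved with the libraries that were included.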
